A study of Mus musculus with 8 samples.

Results

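Solute carriers (gene symbols beginning Slc) are membrane proteins that move small molecules by facilitated diffusion or by coupling their flow to an ion gradient. They carry amino acids, sugars, organic acids, metals, vitamins and nucleotides across the plasma membrane, the lysosome and the inner mitochondrial membrane. In mammary cells they supply the substrates of growth and secretion, and glucocorticoids are known to act on several of them in liver, gut and kidney. The genes described here are 163 of 18194 genes measured. They were chosen by symbol (Slc, family number, a or o, member number) from 334 measured genes with such a symbol. The second criterion was a mean log2 signal of at least 6 over both Untreated arrays. Solute carriers with another letter in place of a or o were not counted here or below. Each gene was read from 1 probe set, its brightest on average. Of the 163 genes, 159 encode carriers, and 4 carry such a symbol only because they were named after one: Slc9a3r1 and Slc9a3r2 (scaffold proteins), Slc4a1ap (an adaptor) and Slc7a6os (a gene opposite Slc7a6).

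The arrays came from the 7438 line, mouse mammary cells engineered with a GFP-tagged glucocorticoid receptor (GFP-GR) and a Cherry-tagged estrogen receptor (Ch-ER), each under a tetracycline-repressed promoter. All 4 groups, Untreated included, were kept in medium with 10% charcoal-dextran serum for 48 hours and without tetracycline for the last 24, so every array carries both induced receptors. Cells were then left Untreated, or given 100 nM dexamethasone (Dex), 100 nM estradiol (E2) or 100 nM of each (Dex + E2) for 2 hours, with 2 arrays in each group. No label says whether the replicates were separate cultures, so p-values measure the spread between these arrays, which may be technical, and a single line was used. For 2 arrays, replicate 2 of E2 and replicate 1 of Dex + E2, the free text speaks of chromatin immunoprecipitation, while title and treatment place them in the groups used here. Of 8 epithelial markers measured, Krt14 lay at 8.19, Krt18 at 4.45 and Cdh1 at 3.24 in Untreated cells. Of 7 mesenchymal markers measured, Vim and Col1a2 lay at 13.96 and 13.97. The levels of the other markers are not given here. These values are on the log2 scale of each probe set, cannot be ranked between probe sets and do not name a cell type. No marker of the epithelial, mesenchymal, immune or endothelial and adipose lists (21 measured) was called in limma in any comparison with Untreated. Replicate arrays correlated at 0.9969 to 0.9986 over all genes. Among the 163 genes the standard deviation of the replicate difference was 0.111 for Dex, 0.127 for Untreated, 0.152 for E2 and 0.175 for Dex + E2. The array least like the rest was replicate 2 of Dex + E2 (mean correlation 0.99593). In this bulk RNA, fewer cells of a kind and less RNA per cell cannot be told apart.

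After 2 hours of Dex, 5 expressed solute carrier genes were called higher. They are 3.07% of the 163, where 1.47% of all genes and 2.38% at the same Untreated level were called in either direction. They were Slc25a33, a mitochondrial carrier of pyrimidine nucleotides, Slc39a14, an importer of zinc, iron and manganese (ZIP14), Slc25a29, a mitochondrial carrier of basic amino acids, Slc45a4, of a family of proton-coupled sugar transporters, and Slc19a2, a thiamine transporter. None of the 163 fell with Dex at the threshold, and the 5 changed genes belong to 4 of the 11 role groups. The Dex calls of Slc45a4 and Slc19a2 were lost when all probe sets of each gene, dim ones included, were averaged. With E2 alone none was called, against 0.104% of all genes and 0.165% at the same level. With both hormones Slc25a33 and Slc39a14 were called, 1.23% of the 163, against 1.46% and 2.32%.

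RefSeq promoter windows (build GRCm38.p6, 250 bases before to 50 after the start) were at hand for 127 of the 163 genes, and for Slc25a33, Slc25a29 and Slc19a2 among the 5. They are shown because these are the starts of genes whose transcripts rose with Dex. Slc25a29 and Slc19a2 were added after their values were seen. Slc25a33 lies at chr4:149774218-149774517 on the minus strand, Slc25a29 at chr12:108835827-108836126 on the minus strand and Slc19a2 at chr1:164248796-164249095 on the plus strand. Capitals mark the E-box CACGTG, a motif chosen after the sequence was seen.
Slc25a33: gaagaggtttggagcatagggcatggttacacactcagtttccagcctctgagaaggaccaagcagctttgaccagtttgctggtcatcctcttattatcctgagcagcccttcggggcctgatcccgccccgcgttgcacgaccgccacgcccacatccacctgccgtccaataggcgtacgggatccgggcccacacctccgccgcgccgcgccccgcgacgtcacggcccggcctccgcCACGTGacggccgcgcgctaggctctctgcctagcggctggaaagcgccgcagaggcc
Slc25a29: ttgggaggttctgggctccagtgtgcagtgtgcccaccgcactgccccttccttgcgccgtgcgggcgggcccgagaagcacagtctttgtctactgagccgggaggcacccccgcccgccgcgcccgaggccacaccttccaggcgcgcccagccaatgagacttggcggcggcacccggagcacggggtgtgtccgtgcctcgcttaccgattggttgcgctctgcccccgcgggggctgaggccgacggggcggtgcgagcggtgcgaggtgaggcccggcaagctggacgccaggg
Slc19a2: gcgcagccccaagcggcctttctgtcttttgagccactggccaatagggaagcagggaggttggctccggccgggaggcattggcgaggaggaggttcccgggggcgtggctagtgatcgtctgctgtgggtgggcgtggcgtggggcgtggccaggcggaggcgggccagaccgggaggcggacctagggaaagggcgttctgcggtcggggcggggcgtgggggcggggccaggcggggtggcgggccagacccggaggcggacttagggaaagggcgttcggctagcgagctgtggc

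The windows are rich in G and C, at 66.0% for Slc25a33, 72.3% for Slc25a29 and 72.0% for Slc19a2. The median was 62.7% in the 169 windows of the 127 genes that had one, and 52.7% in all 32851 windows. Both strands were searched for the palindromic glucocorticoid element (15 letters), its arm AGAACA (contained in the former), the palindromic estrogen element (13 letters) and the amino acid response core (8 letters). None of these motifs occurred in the 3 windows. The glucocorticoid element was in 0.00913% and the estrogen element in 0.07% of all windows, and neither was in any of the 169 windows. The arm AGAACA was in 6233 of all windows and in 14 of the 169 (8.28%), and the amino acid response core in 3.97% and 2.96%. The core was found in windows of Slc1a4, Slc7a11, Slc49a4, Slc50a1 and Slco2a1. The Slc25a33 window holds the E-box beginning 8 bases before the start. That motif was in 7.15% of all windows and in 27 of the 169, and a match is a description of letters, not of binding.

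Slc25a33 was read by 1 probe set. Its log2 signal was 8.65 and 8.89 on the Untreated arrays, 10.82 and 10.79 with Dex, 8.95 and 9.19 with E2, and 10.50 and 10.14 with Dex + E2. Every array with Dex was thus above every array without it. Dex raised the transcript by 2.03 ± 0.13 log2 units (SE; 4.09-fold, limma, Benjamini-Hochberg adjusted p = 3.47e-05), and Dex + E2 raised it by 1.55 ± 0.13 (2.92-fold, adjusted p = 0.000209). E2 alone differed from Untreated by 0.30 ± 0.13 and did not pass (adjusted p = 0.802). Dex + E2 was 1.25 ± 0.13 above E2 alone (2.37-fold, limma, adjusted p = 0.00281). The Untreated arrays, which set the level threshold, do not enter this difference but share in its error, as all 8 arrays were fitted together, and with only the E2 and Dex + E2 arrays fitted the adjusted p was 0.0476.

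Slc39a14 had log2 signals of 9.06 and 9.08 Untreated, 10.20 and 9.95 with Dex, 9.20 and 9.22 with E2, and 10.06 and 9.69 with Dex + E2. The arrays with Dex lay above all without it, with more spread in both groups that received Dex. The rise was 1.00 ± 0.13 log2 units with Dex (2.01-fold, limma, Benjamini-Hochberg adjusted p = 0.00175) and 0.80 ± 0.13 with both hormones (1.74-fold, adjusted p = 0.00863). The call with both hormones was lost without either Untreated array, and when the gene's probe sets were averaged, at 0.39 (adjusted p = 0.104). Against E2 alone, Dex + E2 was 0.67 ± 0.13 higher, at the edge of the threshold (adjusted p = 0.0498), and this call was lost in 11 of 15 other settings.

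Slc25a29 lay at 7.51 and 7.37 Untreated, 8.24 and 8.08 with Dex, 7.46 and 7.53 with E2, and 7.72 and 8.06 with Dex + E2. The groups with and without Dex did not overlap. It rose by 0.72 ± 0.12 log2 units with Dex (1.65-fold, limma, Benjamini-Hochberg adjusted p = 0.0101), while the Dex + E2 value of 0.45 ± 0.12 did not pass (adjusted p = 0.138), though it did when its probe sets were averaged. Slc45a4 lay at 7.96 and 7.98 Untreated, 8.67 and 8.52 with Dex, 8.05 and 8.18 with E2, and 8.44 and 8.28 with both, again without overlap between arrays with and without Dex. It rose by 0.63 ± 0.09 with Dex (1.54-fold, adjusted p = 0.00566), and with both hormones was 0.39 ± 0.09 above Untreated (adjusted p = 0.0943). Slc19a2 lay at 9.65 and 9.61 Untreated, 10.22 and 10.15 with Dex, 9.75 and 9.84 with E2, and 10.08 and 9.79 with both. Here Dex + E2 replicate 2 fell between the E2 arrays. Slc19a2 rose by 0.56 ± 0.10 with Dex (1.47-fold, adjusted p = 0.023) and was 0.31 ± 0.10 above Untreated with both hormones (adjusted p = 0.347).

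**Figure D1:**
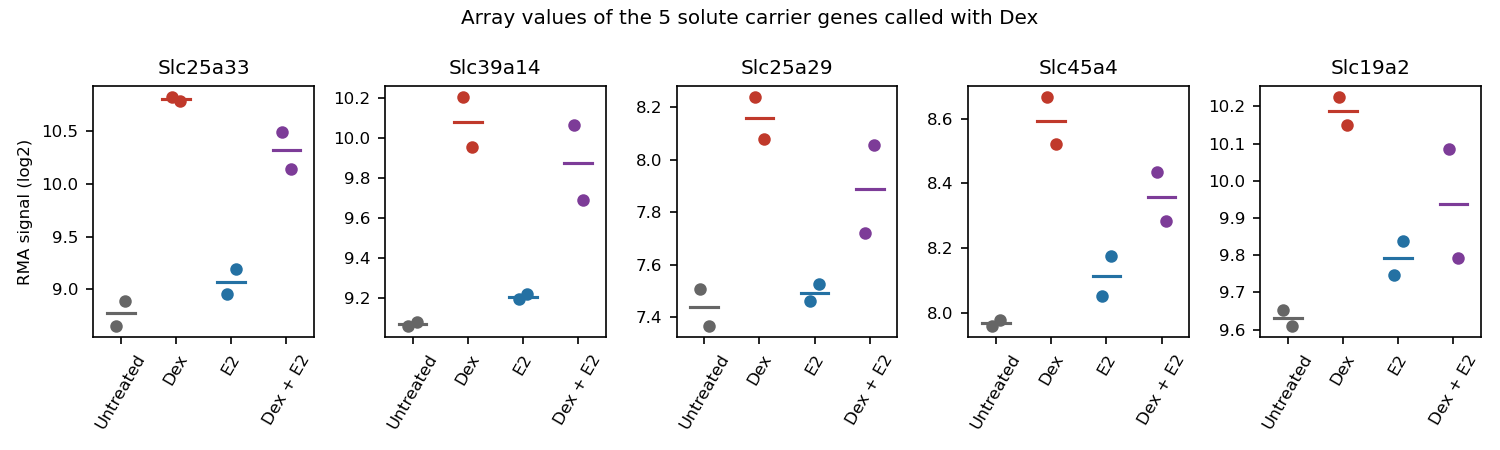
Log2 RMA signal of the 5 solute carrier genes called with Dex, on each of 8 arrays. Points are arrays, bars are group means, and each panel has its own scale, which does not start at 0. Arrays with Dex lie above those without it for Slc25a33, Slc39a14, Slc25a29 and Slc45a4, and for Slc19a2 1 Dex + E2 array lies between both E2 arrays.

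The probe sets of a gene did not give the same size of change. All 5 probe sets of Slc25a29 were higher with Dex, by 0.69 to 0.83 log2 units, and each passed when every probe set was tested (limma, adjusted p = 0.00153 to 0.0147). The 4 probe sets of Slc39a14 were higher by 0.37 to 1.00, and 2 of them passed. Of 3 probe sets for Slc45a4, the brightest (mean log2 signal 8.26 over 8 arrays) passed at 0.63 (limma, adjusted p = 0.00903). The others were dim, with means of 5.88 and 5.10, and their changes of 0.21 and 0.22 did not pass. The 2 brighter probe sets of Slc19a2 were both at 0.56, with adjusted p = 0.0337 and 0.108, and the dim probe set was at 0.15. When the probe sets of each gene were averaged, Slc45a4 and Slc19a2 lost the Dex call and Slc39a14 was 0.67 higher. These averages weigh dim probe sets like bright ones, among them 1 of Slc19a2 at a mean of 5.51 and 1 of Slc39a14 at 5.04.

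**Figure D2:**
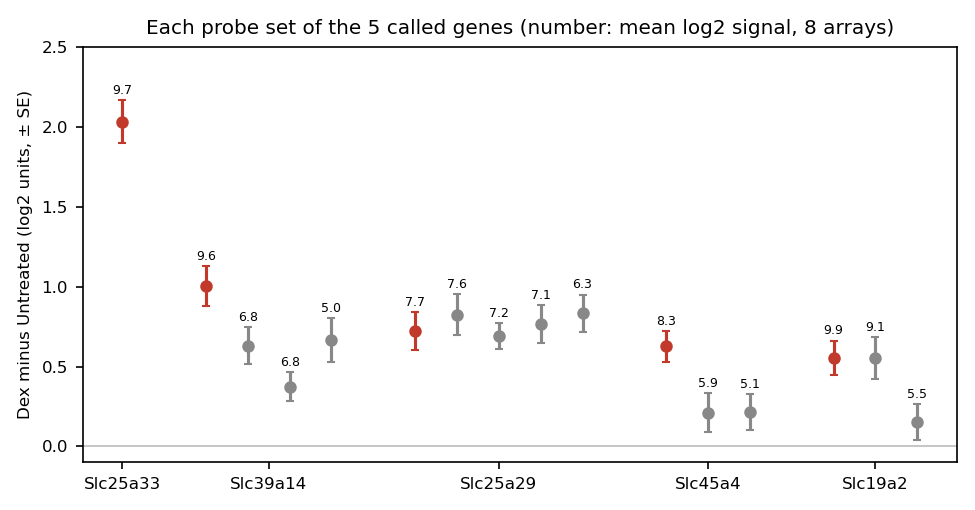
Change with Dex against Untreated (log2 units, ± SE from limma) for each probe set of the 5 called genes. Red marks the probe set used for the gene, grey the others, and the number above each point is its mean log2 signal over 8 arrays. The 5 probe sets of Slc25a29 lie between 0.69 and 0.83, while those of Slc39a14 run from 0.37 to 1.00.

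The 5 genes called with Dex are 3.07% of the 163. Over all genes 1.47% were called with Dex (0.863% higher and 0.605% lower), and among the 10285 genes at the same Untreated level 2.38% were (1.34% higher and 1.04% lower). All 5 were higher, and a count this small is given as a description. The median change of the 163 genes with Dex was -0.01 log2 units, with 81 above 0 and 82 below, and that of the 10285 was also -0.01. The Untreated arrays that set the level threshold also enter this comparison, but the 5 genes had Untreated means of 7.44 or more, and all 5 were counted with a threshold of 7. The 95% interval of the Dex change lay within 1 log2 unit of 0 for 161 of the 163, all but Slc25a33 and Slc39a14, and within 0.5 for 154. The count of 5 was 2 without Untreated replicate 1, Untreated replicate 2 or Dex replicate 1, and 3 without Dex replicate 2. Slc25a33 and Slc39a14 were called without each of the 8 arrays in turn.

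Mitochondrial carriers form the largest group, with 32 genes, of which Slc25a33 and Slc25a29 rose with Dex and the others did not pass. Slc25a37, mitoferrin 1, which brings iron into mitochondria, lay at 8.46 and 8.36 Untreated, 8.05 and 7.94 with Dex, 8.39 and 8.20 with E2, and 8.07 and 7.94 with both. All arrays with Dex were below all without it, and the difference of -0.41 ± 0.10 with Dex was the lowest of the 163 but did not pass (limma, Benjamini-Hochberg adjusted p = 0.0865). It passed with the replicate number as a block and when genes with a mean under 6 were left out. Slc25a25, a carrier of ATP-Mg and phosphate, was 0.27 ± 0.11 higher with Dex and 0.33 ± 0.11 with both hormones (adjusted p = 0.684 and 0.371). The adenine nucleotide translocases Slc25a4 and Slc25a5 were at 0.02 and 0.02, and the phosphate carrier Slc25a3 at 0.06.

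Among 22 metal transporters Slc39a14 alone rose with Dex. Slc30a1, the zinc exporter of the plasma membrane, lay at 8.62 and 8.62 Untreated, 8.34 and 8.47 with Dex, 8.71 and 8.78 with E2, and 8.56 and 8.39 with both. The arrays with Dex were all below the others, and the difference of -0.21 ± 0.09 did not pass (limma, adjusted p = 0.729). The other 20 changes with Dex ran from -0.14 for the zinc importer Slc39a10 to 0.16 for the copper transporter Slc31a2.

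None of the 27 amino acid transporters was called with Dex in limma, where 2.38% of genes at the same Untreated level were. At an unadjusted p under 0.05 the count was 2 lower and none higher, 7.41% of the 27 against 8.03% of genes at that level. The 2 lower genes were Slc1a5, the glutamine transporter ASCT2, at -0.28 ± 0.10 (adjusted p = 0.426), and Slc6a9, a glycine transporter, at -0.25 ± 0.09 (adjusted p = 0.483). Slc7a5 and Slc3a2, the light and heavy chain of the LAT1 exchanger, were at 0.004 ± 0.085 and -0.02 ± 0.09 with Dex. The 95% interval of Slc7a5 ran from -0.19 to 0.19. Slc38a2, a sodium-coupled transporter of small neutral amino acids, was at -0.02 ± 0.08, and Slc7a11, the cystine-glutamate exchanger, at -0.02 ± 0.10.

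Of 15 genes in the sugar families, Slc45a4 rose with Dex. Slc2a1, the glucose transporter GLUT1, lay at 11.25 and 11.35 Untreated and 11.25 and 11.24 with Dex, a difference of -0.06 ± 0.09 with a 95% interval from -0.26 to 0.15. Slc5a3, a sodium-coupled inositol transporter, was at -0.26 ± 0.08 with Dex (limma, adjusted p = 0.309). Among 12 carriers of vitamins, lipids and related molecules Slc19a2 rose, and its relative Slc19a1, the reduced folate carrier, was at -0.02 ± 0.09.

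No gene of the remaining role groups was called in any comparison. Among 18 ion and pH transporters, the values with the smallest p for Dex were -0.20 ± 0.09 for the phosphate transporter Slc20a1 and 0.16 ± 0.08 for the potassium-chloride cotransporter Slc12a7 (limma, adjusted p = 0.804 and 0.895), and Slc12a2, the sodium-potassium-chloride cotransporter, was at 0.09 ± 0.09. Of 14 organic ion and peptide carriers, the carnitine transporter Slc22a5 was at 0.17 ± 0.08 and the urate transporter Slc22a12 at 0.13 ± 0.11. The 8 carriers of nucleosides and nucleotide sugars that the symbol rule took in gave -0.16 ± 0.09 for the nucleoside transporter Slc29a1. The UDP-galactose transporter Slc35a2 was at -0.12 ± 0.09. Of 5 organic acid carriers, the monocarboxylate transporters Slc16a8 and Slc16a1 were at 0.26 ± 0.15 and -0.11 ± 0.09. The 3 vesicular and lysosomal genes included the vesicular GABA transporter Slc32a1 at 0.10 ± 0.11 and the vesicular nucleotide transporter Slc17a9 at 0.05 ± 0.09. Among the 3 genes of other families, Slc49a4 was at 0.07 ± 0.09 and the lysosomal amino acid transporter Slc66a1 at 0.08 ± 0.11. The 4 genes that are not carriers ran from -0.04 to 0.09.

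**Figure D3:**
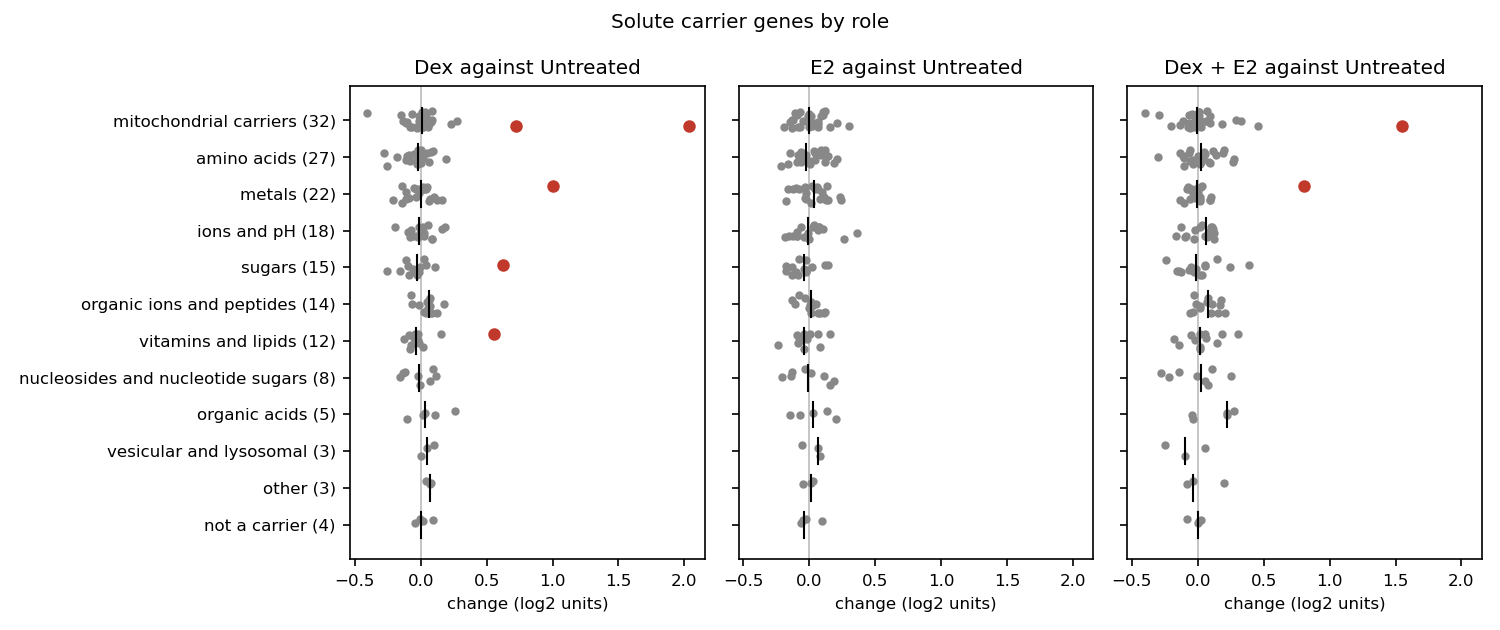
Change against Untreated (log2 units) of the 163 genes by role, for Dex, E2 and Dex + E2. Each point is a gene, red points are called by limma at a Benjamini-Hochberg adjusted p under 0.05, black bars are group medians, numbers in brackets are genes per group, and vertical scatter within a group carries no value. The 5 red points with Dex lie between 0.56 and 2.03, there are none with E2, and 2 with Dex + E2.

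E2 alone called none of the 163 genes in limma. It called 0.104% of all genes and 0.165% of genes at the same Untreated level, so a count of 0 is near the background. At an unadjusted p under 0.05 the counts were 6 higher and 3 lower, 5.52% of the 163. The same cut took 6.18% of all genes and 7.74% at the same level. Changes ran from -0.23 ± 0.09 for Slc44a2, a choline transporter-like protein, to 0.36 ± 0.13 for the sulfate transporter Slc26a2, neither of which passed (adjusted p = 0.762 and 0.715). The lowest adjusted p among the 163 was 0.592, for Slc12a2 at 0.26 ± 0.09. The 95% interval of the E2 change lay within 1 log2 unit of 0 for all 163 genes in this fit and within 0.5 for 160.

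With both hormones, Slc25a33 and Slc39a14 were the genes called against Untreated, 1.23% of the 163, against 1.46% of all genes and 2.32% at the same level. Against E2 alone the same 2 genes were called, also 1.23%, against 0.627% and 0.982%. The count against E2 was 1, Slc25a33, without either Untreated array, either Dex array or either E2 array. Without Dex + E2 replicate 1 it was 7, when Slc25a29, Slc25a25, Slc25a42, Slc5a9 and Slc6a15 were added, named after their values were seen. The count against Untreated was 4 without Dex + E2 replicate 1 and 1 without either Untreated array. The Dex changes without and with E2, which share no array, had the same sign for 89 of the 163 genes (54.6%), against 55.2% of genes at the same level. Across these genes, which are not independent replicates, they correlated at 0.679, and at 0.419 without Slc25a33 and Slc39a14, against 0.475 over all genes. The last value takes in genes of every level and leaves none out, so it is not a like comparison for either of the others.

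**Figure D4:**
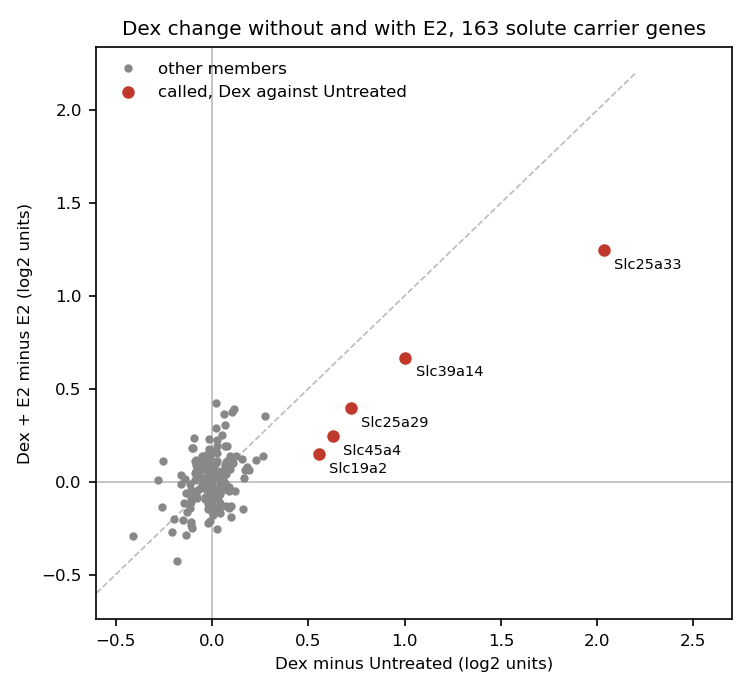
Change with Dex in the absence of E2 (Dex minus Untreated, x axis) and in its presence (Dex + E2 minus E2, y axis), both in log2 units, for the 163 genes. Each point is a gene, the axes share no array, the dashed line marks equal changes, and red points are the 5 genes called with Dex against Untreated. They run from 0.56 to 2.03 on the x axis, which chose them, and from 0.15 to 1.25 on the y axis.

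Dex against E2, a difference that the Untreated arrays enter only through the shared error, called 4 of the 163 genes (2.45%), against 1.15% of all genes and 1.81% at the same level. Slc25a33 was higher with Dex by 1.73 ± 0.13 log2 units, Slc39a14 by 0.87 ± 0.13, Slc25a29 by 0.67 ± 0.12 and Slc45a4 by 0.48 ± 0.09 (limma, Benjamini-Hochberg adjusted p = 0.000169, 0.00712, 0.0217 and 0.0358). Slc19a2 was 0.40 ± 0.10 higher without passing (adjusted p = 0.155). The Slc45a4 call was lost in 10 of 15 other settings, among them the fit of only the compared groups (adjusted p = 0.0501) and averaged probe sets (0.27 higher). The count was 1 without Dex replicate 1 or E2 replicate 2, and 2 without Dex replicate 2 or E2 replicate 1.

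Adding E2 to Dex called none of the 163 genes in limma, against 0.011% of all genes and 0.0194% at the same level. At an unadjusted p under 0.05 there were 2 higher and 5 lower genes, 4.29% of the 163. The same cut took 4.67% of all genes and 4.25% at the same level. The 5 genes called with Dex were all lower with Dex + E2 than with Dex, by -0.49 ± 0.13 for Slc25a33, -0.27 ± 0.12 for Slc25a29, -0.25 ± 0.10 for Slc19a2, -0.24 ± 0.09 for Slc45a4 and -0.20 ± 0.13 for Slc39a14. They were picked for high values on the same Dex arrays, so this order is a description. The Dex by E2 interaction also called none, against 0.0055% of all genes and 0.00972% at the same level. At an unadjusted p under 0.05 there were 2 higher and 3 lower genes, 3.07% of the 163. The same cut took 5.52% of all genes and 5.41% at the same level. For Slc25a33 the interaction was -0.79 ± 0.19 with a 95% interval from -1.21 to -0.37 (limma, adjusted p = 0.852). The interval is not adjusted for the number of genes. Slc25a33 had the largest Dex change of the 163, and that change enters this term with a minus sign, so the value is a description.

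Smaller shifts were read from arrays that do not overlap, a description added after the values were seen. All 4 arrays with Dex were above all 4 without it for 8 of the 163 genes (4.91%), against 3.01% at the same level and 3.34% of all genes. Beside the 4 described above these were Slc25a25, Slc25a47, Slc22a5 and the prostaglandin transporter Slco2a1, with mean differences of 0.05 to 0.31. They were all below for 6 genes (3.68%), against 5.56% and 3.4%, namely Slc25a37, Slc30a1, Slc20a1, Slc5a3, the zinc importer Slc39a6 and the mitochondrial carrier Slc25a24, with mean differences of -0.35 to -0.10. For E2 the arrays separated upwards for Slc7a5 and the lysosomal nucleoside transporter Slc29a3 and downwards for the anion exchanger Slc26a6 and the zinc transporter Slc39a11. These shares of 1.23% and 1.23% stand against 1.48% and 1.53% at the same level, and 1.26% and 1.29% of all genes. On Slc7a5 the E2 arrays lay at 11.68 to 11.85 and the others at 11.59 to 11.66, a mean difference of 0.16.

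None of 22 genes of the ABC family at the same level, which include the soluble translation proteins Abce1, Abcf1, Abcf2 and Abcf3, and none of 9 measured ion pump genes was called with Dex in limma (1 lower at an unadjusted p under 0.05 in each list, none higher), with medians of -0.02 and -0.02. Of 18 partners and regulators of carriers, Sgk1, a kinase that acts on several of them, rose by 1.31 ± 0.14 (limma, adjusted p = 0.000486), and the list's median was 0.01. Ppargc1a, a coactivator of mitochondrial genes, was at -0.55 ± 0.12 with Dex (adjusted p = 0.0673) and fell by 0.70 ± 0.12 with Dex + E2 (adjusted p = 0.0198). Of 14 amino acid response genes, 2 rose and 2 fell with Dex, where 1.47% of all genes and 2.38% at the same level were called. Cebpb rose by 1.18 ± 0.12 and Ddit4 by 1.12 ± 0.20, while Ddit3 fell by 0.58 ± 0.10 and Chac1 fell by 0.48 ± 0.09, with a median of -0.07 over the list, against 0.004 over all genes.

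The level threshold of 6 is a rule of choice, not a limit of detection. Just inside it were the glucose transporters Slc5a2 (6.02 in Untreated cells) and Slc2a4 (6.04) and the glutamate transporter Slc1a7 (6.08), and just outside were Slc16a10 (5.98), Slc1a3 (5.97) and Slc46a3 (5.95). Of those outside, Slc46a3 was 0.51 ± 0.11 log2 units higher with Dex without passing (limma, adjusted p = 0.0533). Slc1a3 was at 0.23 ± 0.09 and Slc16a10 at 0.07 ± 0.08. The genes just inside ran from -0.09 to 0.03 with Dex. Untreated means of the 163 genes ran from 6.02 to 13.2, and levels of different probe sets cannot be ranked. Of the carriers always given, Slc16a3 (4.30) and Slc40a1 (5.01) lay under the threshold.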

How the data were processed

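RNA from 7438 cells was measured on 8 Affymetrix mouse arrays, 2 in each of 4 groups taken from the sample titles. The deposited values are log2 signals of 45101 probe sets, made by the authors with RMA in Affymetrix Expression Console (version not given), per the submitters' processing notes. RMA subtracts background, equalises array distributions and summarises probes, which compresses changes of dim probe sets. Probe sets were named from GEO's platform annotation: 34958 have 1 symbol, 932 several and 9211 are not listed, and the latter kinds were left out. All 163 symbols matched the RefSeq table (GRCm38.p6, names only), and 0 changed.

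Limma 3.58.1 in R 4.3.3 fitted 4 group means to 18194 genes on all 8 arrays, with 4 residual and 6.2 prior degrees of freedom. The 7 contrasts were tested with Benjamini-Hochberg adjustment over all genes, and a call is an adjusted p under 0.05. Errors after ± are limma standard errors. The fit was tested on simulated arrays. The number of arrays limits the precision (median standard error 0.0917 for the 163 genes).

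The members, role groups (by family number), gene lists and tests were chosen with earlier results of these data known. The genes named are those called in any comparison, 16 carriers always given (13 of them among the 163), the 2 with the smallest p in each role group without a call, the 3 on each side of the level threshold, solute carriers called under it, and up to 4 called genes of each other list. Others were named after their values were seen. Alternatives were leaving out each array, the replicate number as a block, another prior, other probe set rules, a level filter, median centring, fits on the compared groups alone and other level thresholds. Scan dates were not at hand, so batches could not be checked. Protein sequences were not used here.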

Additional observations from a re-analysis of the deposited data

How the results depend on the processing

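Direction was the same in every setting run for each of the 5 genes called with Dex. Slc25a33 kept all its calls in 15 other settings, with a Dex change of 1.91 to 2.15 log2 units and an adjusted p of 1.24e-06 to 0.00156. Leaving out each array in turn gave 2 to 5 genes called with Dex, 1 to 4 with Dex + E2 against Untreated, 1 to 7 with Dex + E2 against E2 and 1 to 5 with Dex against E2. When the probe sets of each gene were averaged, Dex called 3 genes and Dex + E2 against E2 called 1. The latter count was also 1 with every probe set tested, with arrays centred on their median, with only the compared groups fitted and with the replicate block. The replicate block gave 2 genes for Dex against E2, 6 for Dex and 3 for Dex + E2: it added Slc25a37 to the latter pair and lost Slc25a29 and Slc45a4 for Dex against E2 and Slc39a14 for Dex + E2 against E2. The replicate numbers were not taken as pairs, since no label ties them and the correlations of same-numbered deviations ran from -0.26 to 0.347. Whether they mark a batch was not tested. Comparisons with a count of 0 stayed at 0 in all settings run. The cause of these differences was not tested.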

Other observations

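Among 171 solute carrier genes under the level threshold, 2 were called in some comparison. With Dex 0.585% of the 171 were called, against 1.47% of all genes. For Dex against E2 the shares were 1.17% and 1.15%, and for Dex + E2 against E2 0.585% and 0.627%. Slc10a6, a transporter of steroid sulfates, lay at 5.73 and 5.69 Untreated, 6.72 and 6.35 with Dex, 5.88 and 5.53 with E2, and 6.15 and 5.97 with both. It rose by 0.82 ± 0.14 log2 units with Dex (limma, Benjamini-Hochberg adjusted p = 0.0144), and its Dex + E2 value of 0.35 ± 0.14 did not pass (adjusted p = 0.513). Slc10a6 was also 0.83 ± 0.14 higher with Dex than with E2 (limma, adjusted p = 0.0188). Slc16a4, an orphan of the monocarboxylate family, lay at 6.11 and 5.71 Untreated, 5.53 and 5.53 with Dex, 6.26 and 6.24 with E2, and 5.45 and 5.10 with both. It was lower with Dex + E2 than with E2 by -0.97 ± 0.14 (adjusted p = 0.0131) and lower with Dex than with E2 by -0.72 ± 0.14 (adjusted p = 0.0381), while no comparison with Untreated passed. When its 2 probe sets were averaged, the other with a mean log2 signal of 4.21, both Slc16a4 calls were lost. The call of Dex + E2 against E2 was also lost without either E2 array or Dex + E2 replicate 2. That of Dex against E2 was lost without either Dex or either E2 array. Slc10a6 lost its call of Dex against Untreated without either Untreated array or Dex replicate 1, and that of Dex against E2 without Dex replicate 1 or E2 replicate 2. Leaving out each array in turn gave a change with Dex against Untreated of 0.64 to 1.00 log2 units.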
